A study of Homo sapiens with 6 samples.

Results

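A set of 10 genes from 4 small families was followed over the 6 arrays of a study of HMLE cells, an immortalised human mammary epithelial line. The families were the Tribbles pseudokinases TRIB1, TRIB2 and TRIB3, the sestrins SESN1, SESN2 and SESN3, the glutathione-degrading enzymes CHAC1 and CHAC2, and the mTORC1 inhibitors DDIT4 (REDD1) and DDIT4L (REDD2). Members were taken by symbol, as the probe sets annotated to 1 of the 10 symbols and to no other gene, which gave 10 genes on 21 probe sets among 19775 genes on the array. Each family holds at least 1 gene described as a target of ATF4 or CHOP beside paralogues with other regulation.

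The control line had been infected with a pBabe-shGFP retrovirus and the Twist line with pBabe-Twist, and Twist is a transcription factor known for inducing the epithelial-mesenchymal transition (EMT). Cells of each line were given DMSO as solvent control or the compound Cmp302, of which the labels give a code name alone, in groups titled 5 µM and 10 µM. Expression was read from total RNA on Affymetrix U133 Plus arrays, 1 per group, so that differences between 2 arrays lack a replicate check and precision is limited by how few arrays there are. The treatment protocol gives 6 h, whereas the source names of the same arrays state 2 µM throughout, with 4 h for the first compound level and 8 h for the second, so that a step of dose and a step of time cannot be told apart. No label says whether either line is a clone or a pool of infected cells. All 6 cultures shared the HMLE background, the retroviral infection and a medium with insulin, EGF and hydrocortisone.

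When eIF2-alpha is phosphorylated, by PERK in the stressed endoplasmic reticulum or by other kinases, general translation slows while the transcription factor ATF4 is made in larger amounts. ATF4 induces CHOP (gene DDIT3), and both act on promoters of genes for amino acid supply, redox balance and feedback control. TRIB3, SESN2, CHAC1 and DDIT4 are textbook members of that target set. Their paralogues mostly answer to other inputs, such as p53 for SESN1 and FOXO factors for SESN3, and CHAC2 is regarded as a constitutive enzyme.

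Values are log2 signals, on which a difference of 1 is 2-fold. Signals under a floor of 3.71, the median of all values, were set to the floor. Between 11646 and 11841 genes lay above it on each array. For GAPDH and ACTB the array carries 3' and middle probe sets, and their mean difference, which follows RNA integrity and labelling, was 0.28 to 0.835 log2 units in the control line. In the Twist line this contrast was 0.355 to 0.955. It was highest, at 0.955, on the Twist DMSO array, which is the baseline of every compound difference in that line. The labelled cell types held up against their markers. In the Twist line CDH1, EPCAM, KRT5 and ESRP1 did not exceed the floor, and the epithelial list of 6 genes had a summed signal of 76.05 to 77.57 in the control line against 23.51 to 23.99 in the Twist line. PRRX1 was at the floor on the control-line arrays and between 12.62 and 12.94 on the Twist-line arrays. ZEB1 and ZEB2 were at most 6.61 and 5.14 in the control line and at least 12.72 and 10.68 in the Twist line. The lines were closer in the other mesenchymal markers. FN1 had 13.24 to 13.31 in the control line against 13.49 to 13.60, CDH2 10.75 to 10.95 against 11.98 to 12.14, and VIM 10.98 to 11.68 against 13.20 to 13.81. Of 12 blood, endothelial and fat cell markers, 9 were at the floor on all arrays, PTPRC, VWF and ADIPOQ among them. The list's summed signal was 49.34 to 50.44 in the control line and between 55.28 and 55.92 in the Twist line, where PECAM1 and FABP4 were higher under DMSO by 3.59 and 2.71, and the part of such cells in the member values was not tested.

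Of the 10 genes, 9 lay above the floor on all 6 arrays, so none of them passed the filter through its high group alone. The exception was DDIT4L, whose only probe set had signals of 2.27 to 3.59, under the floor on every array. No level or difference can be given for it at this floor. In all, 11 of the 21 probe sets were above the floor on 6 arrays and 8 were below it on 6, and those 8 included 6 of the 7 probe sets of SESN3. Each gene was read by its brightest probe set. Brightness differs between probe sets for reasons other than transcript number, so levels are compared between arrays and not between genes.

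**Figure D1:**
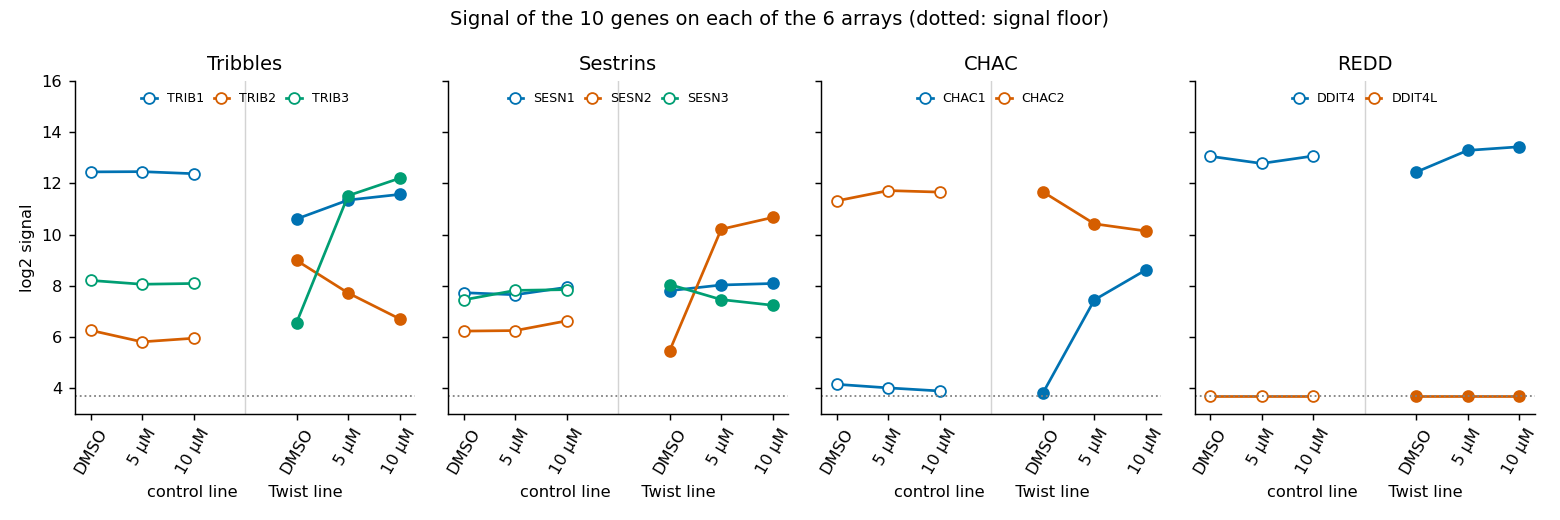
Log2 signal of the 10 genes (y axis) on the 6 arrays (x axis, 1 array per point), in 4 panels by family, with open points for the control line and filled points for the Twist line. The control-line points of each gene lie within 0.45 log2 units of each other, while TRIB3, SESN2 and CHAC1 span 4.81 to 5.64 in the Twist line.

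In the Twist line the Tribbles, sestrins and CHAC enzymes each split under Cmp302, and of the REDD pair DDIT4 alone was measured. TRIB3, SESN2 and CHAC1 were 31.1-fold, 26.7-fold and 12.5-fold above DMSO at 5 µM and 49.9-fold, 36.8-fold and 28.1-fold above it at 10 µM. TRIB2 and CHAC2 were lower than under DMSO at both levels, by 4.85-fold and 2.88-fold at 10 µM. DDIT4 and TRIB1 were just under 2-fold higher at 10 µM, and SESN1 and SESN3 were under 2-fold from DMSO. In the control line none of the 9 genes was 2-fold from DMSO at either level, and the widest range of any of them over its 3 arrays was 0.45.

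Counted against the whole array, 3 of the 9 measured genes were higher past 2-fold at 5 µM in the Twist line and 2 were lower, where 4.26% of 11868 measured genes were higher and 5.01% lower. At 10 µM the same counts of 3 and 2 stood beside 8.04% and 8.46% of 11931 genes. The median difference over the 9 was 0.74 and 0.96, and over all measured genes it was -0.00 and -0.01. In the control line 0 of 9 passed 2-fold in either direction, beside 0.0585% higher and 0.0668% lower at 5 µM and 0.2% and 0.259% at 10 µM. With 1 array per group these counts carry no test. Both compound differences of a line share its DMSO array. In RNA of whole cultures, a change in the number of cells that express a gene and a change in RNA per cell cannot be told apart.

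**Figure D2:**
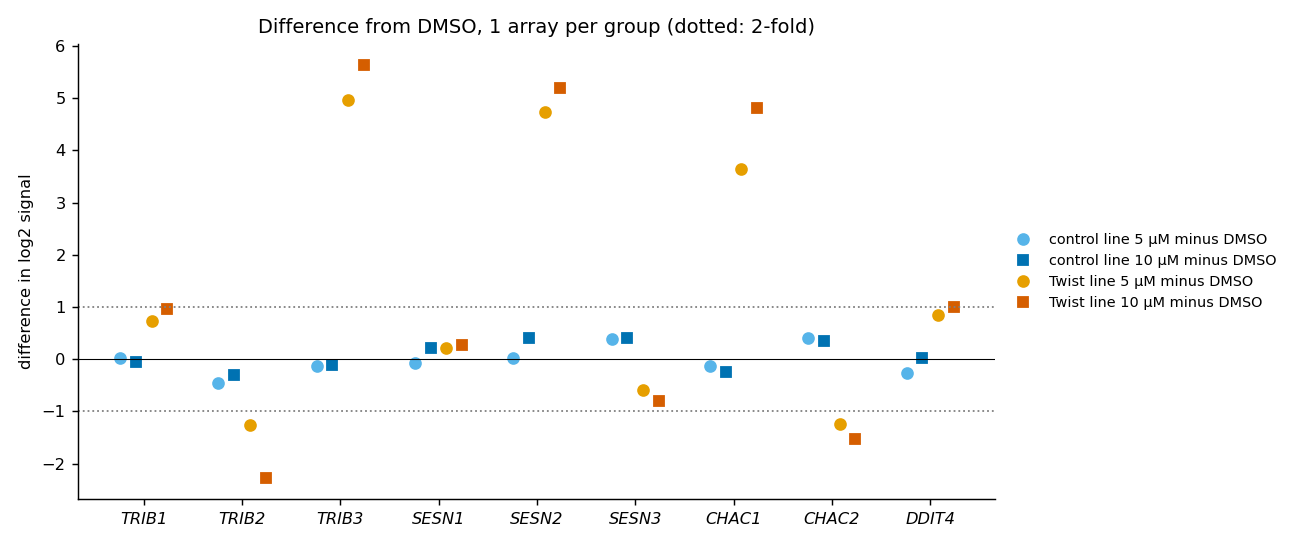
Difference in log2 signal from the DMSO array of the same line (y axis) for the 9 measured genes (x axis), for 5 µM (circles) and 10 µM (squares) in the control line (blue) and the Twist line (orange). The dotted lines mark 2-fold. TRIB3, SESN2 and CHAC1 lie above 3.6 at both levels in the Twist line, and every control-line point lies between -0.45 and 0.41.

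A test was possible for the trend over compound level, coded 0, 1 and 2, in a limma fit with line, level and their interaction over all 6 arrays and 12478 genes. The fit has 2 residual degrees of freedom. The spread it measures is departure from a straight line and not replicate spread. That spread is pooled over both lines. Each gene therefore has the same SE in both lines, and a control-line SE or p does not give the control line's own spread. In the Twist line 5 of the 9 genes rose (TRIB1, TRIB3, SESN2, CHAC1 and DDIT4) and 2 fell (TRIB2 and CHAC2) at an adjusted p of 0.05, where 10.8% of all genes rose and 11.4% fell. In the control line the limma fit called 0 of the 9, with 0 at an unadjusted p under 0.05, and 0 of all genes in either direction, with 937 of 12478 at an unadjusted p under 0.05. The difference of trends between the lines was called for 0 of the 9 (0.729% of all genes higher and 0.793% lower), although 8 of them had an unadjusted p under 0.05, as did 4928 of the 12478 genes (39.5%). The lowest adjusted p of that difference in the limma fit was 0.0506, for CHAC1 and TRIB2. With the levels coded 0, 1 and 1, so that both compound arrays stand for 1 state, the difference was called for 5 of the 9 as higher and 2 as lower, but calls over all genes were then 12.5% and 13.9%. The Twist-line calls also rest on few arrays. Leaving out the control-line DMSO, 5 µM or 10 µM array, or the Twist-line DMSO or 10 µM array, left 0 of the 9 called in either direction. Of all 12478 genes 0 were then called as well. Without a control-line array the Twist-line coefficients stayed the same (CHAC1 2.41, SESN2 2.60, TRIB3 2.82), and only 1 residual degree of freedom was left. Without the Twist-line 5 µM array 4 rose and 1 fell, beside 11.8% and 14.1% of all genes. With no filter on low signals 0 were called, beside 0.0405% of all genes in each direction.

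**Figure D3:**
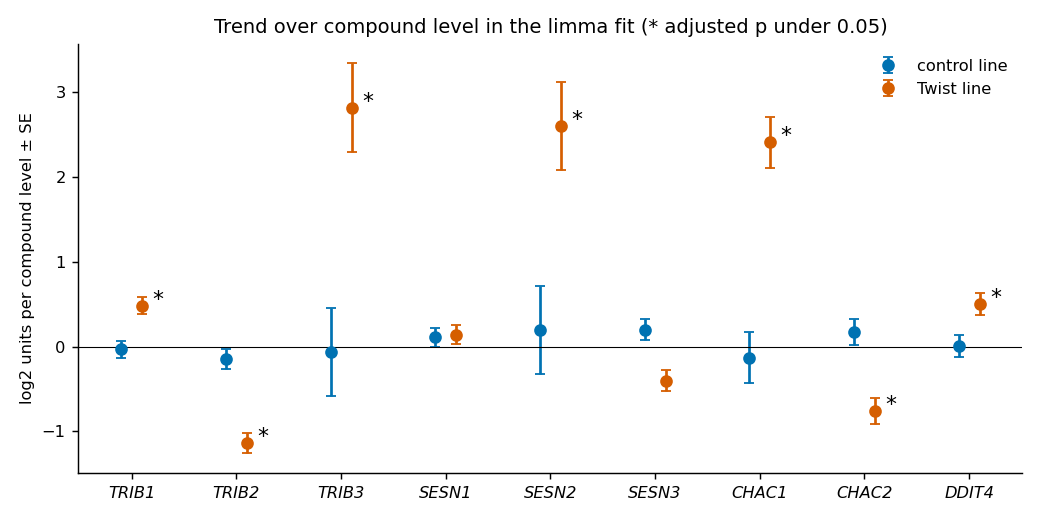
Trend in log2 units per compound level with its SE from the limma fit (y axis) for the 9 measured genes (x axis), control line in blue and Twist line in orange, with a star where the adjusted p is under 0.05. The SE of a gene is pooled over both lines and so is the same in each. Stars stand on 7 Twist-line values and on no control-line value.

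The promoter windows of the genes that rose or fell are shown here to set the paralogues side by side at the level of sequence. They come from RefSeq (GRCh38.p14) and span 250 bases before to 50 bases after the annotated start, written 5′ to 3′ along the gene. Windows of 9 genes were searched, not that of TRIB1, and where a gene had several starts the first is printed. Capitals mark matches on either strand to the C/EBP-ATF composite element TGATGNAA, the CCAAT box CCAAT and the FOXO site GTAAACA, which do not overlap each other in these windows. The genes that rose were SESN2 (chr1:28259268-28259567, plus strand), DDIT4 (chr10:72273674-72273973, plus strand), CHAC1 (chr15:40953221-40953520, plus strand) and TRIB3 (chr20:381045-381344, plus strand). Those that fell were CHAC2 (chr2:53767533-53767832, plus strand) and TRIB2 (chr2:12716686-12716985, plus strand).
TRIB3: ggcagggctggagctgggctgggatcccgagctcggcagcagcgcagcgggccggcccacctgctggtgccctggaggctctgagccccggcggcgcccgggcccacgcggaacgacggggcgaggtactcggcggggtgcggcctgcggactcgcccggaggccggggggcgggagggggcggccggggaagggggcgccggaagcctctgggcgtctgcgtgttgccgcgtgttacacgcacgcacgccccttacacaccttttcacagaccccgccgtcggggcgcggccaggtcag
SESN2: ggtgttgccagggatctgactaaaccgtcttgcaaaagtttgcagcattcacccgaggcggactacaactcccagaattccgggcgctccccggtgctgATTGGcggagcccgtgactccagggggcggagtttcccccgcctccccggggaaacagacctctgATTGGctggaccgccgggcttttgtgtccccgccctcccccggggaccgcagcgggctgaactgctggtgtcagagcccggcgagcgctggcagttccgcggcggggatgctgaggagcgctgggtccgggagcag
CHAC1: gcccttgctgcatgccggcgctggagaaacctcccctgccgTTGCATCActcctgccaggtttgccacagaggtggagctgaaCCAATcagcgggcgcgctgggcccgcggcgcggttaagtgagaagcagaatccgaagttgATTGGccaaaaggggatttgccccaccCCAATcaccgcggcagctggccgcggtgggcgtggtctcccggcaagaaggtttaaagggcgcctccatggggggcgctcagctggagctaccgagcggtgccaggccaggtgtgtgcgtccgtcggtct
DDIT4: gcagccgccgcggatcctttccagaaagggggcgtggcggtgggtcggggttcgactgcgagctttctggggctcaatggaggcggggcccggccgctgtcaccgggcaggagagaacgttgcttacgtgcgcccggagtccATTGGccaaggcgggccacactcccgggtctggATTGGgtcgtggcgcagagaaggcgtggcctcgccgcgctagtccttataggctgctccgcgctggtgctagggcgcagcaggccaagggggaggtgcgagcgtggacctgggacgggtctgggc
TRIB2: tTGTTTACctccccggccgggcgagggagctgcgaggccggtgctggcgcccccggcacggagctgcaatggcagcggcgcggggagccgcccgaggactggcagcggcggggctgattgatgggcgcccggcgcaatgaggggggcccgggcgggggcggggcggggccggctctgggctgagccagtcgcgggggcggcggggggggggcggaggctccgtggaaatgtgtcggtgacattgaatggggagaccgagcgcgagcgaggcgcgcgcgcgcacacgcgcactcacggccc
CHAC2: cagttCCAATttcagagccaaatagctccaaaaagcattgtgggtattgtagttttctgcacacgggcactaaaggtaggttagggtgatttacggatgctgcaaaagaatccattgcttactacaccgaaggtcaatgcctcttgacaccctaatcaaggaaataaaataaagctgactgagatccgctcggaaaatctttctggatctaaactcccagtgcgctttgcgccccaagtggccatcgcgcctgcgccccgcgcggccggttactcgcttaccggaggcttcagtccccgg

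Of these windows only that of CHAC1 held TGATGNAA, on the reverse strand as TTGCATCA at -209 to -202, counted with the annotated start as 0. The element occurs in 3.62% of all 35116 promoter windows of the same length. CCAAT, which occurs in 34.6% of all windows, was found 3 times in the CHAC1 window and 2 times each in those of SESN2 and DDIT4, at -151 and -86 for SESN2 and at -108 and -75 for DDIT4. The CHAC2 window held 1, at -245, near its upstream end. Among the windows searched but not printed, CCAAT also occurred for SESN1, which neither rose nor fell. It lay at -90 in the window of 1 start and at -75 in that of another. The TRIB3 window held none of the motifs. GTAAACA, found in 3.42% of all windows, was present in that of TRIB2 at -249, on the reverse strand. Neither the CRE palindrome TGACGTCA (1.85% of all windows) nor the ER stress element (0.0769%), which contains a CCAAT box, was found in any of the windows searched. A match is a string of letters and not a known binding site, and the windows leave out more distant elements and introns.

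TRIB3, a pseudokinase that binds AKT and is itself induced by ATF4 and CHOP, had control-line signals of 8.21, 8.06 and 8.09 under DMSO, 5 µM and 10 µM, the order used for all values that follow. Its Twist-line signals were 6.56, 11.52 and 12.20. The Twist DMSO array was thus the lowest of the 6 and both Twist compound arrays lay above the whole control line. The difference from DMSO was 4.96 at 5 µM and 5.64 at 10 µM, and each ranked 2 among all measured genes. In the limma fit TRIB3 rose in the Twist line by 2.82 ± 0.52 log2 units per level (SE, adjusted p = 0.0246), against -0.06 ± 0.52 in the control line (adjusted p = 1.0). The difference of these trends was 2.88 ± 0.73 (limma, adjusted p = 0.0588). Its other probe set, at the floor on the Twist DMSO array, gave at least 2.92 and 3.99, and the SD between the 2 probe sets was 1.17 at 10 µM. The median over probe sets gave 3.94 and 4.81.

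TRIB2, a scaffold that brings the ubiquitin ligase COP1 to C/EBP-alpha, went the other way. Its signals were 6.26, 5.81 and 5.95 in the control line against 8.99, 7.72 and 6.71 in the Twist line. On this probe set every Twist-line array lay above every control-line array, and the gap narrowed from 2.73 under DMSO to 1.91 at 5 µM and 0.76 at 10 µM. TRIB2 fell in the Twist line by 1.14 log2 units per level (SE 0.12, limma adjusted p = 0.0106), the lowest adjusted p of the 9 genes. On its brightest probe set it was also 1 of 60 genes (0.508% of 11813) that were 2-fold lower at 10 µM than at 5 µM in that line. The difference was -1.01, just past 2-fold, in a comparison that does not use the DMSO array. On the other, dimmer probe set this step was under 2-fold, from 4.15 to 3.85. The dimmer probe set gave -0.74 and -1.04 against DMSO, so both probe sets had the same sign and the SD between them was 0.88 at 10 µM. On the dimmer probe set the lines were only 0.92, 0.36 and 0.08 apart, and the Twist 10 µM array (3.85) lay below the control-line DMSO array (3.97). With the median over probe sets the line differences of TRIB2 under DMSO and at 5 µM were 1.83 and 1.13.

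TRIB1, which shares the COP1 scaffold function with TRIB2, had signals of 12.45, 12.46 and 12.38 in the control line. The Twist-line signals of 10.61, 11.35 and 11.57 all lay below these. TRIB1 rose in the Twist line by 0.48 ± 0.10 log2 units per level (SE, limma adjusted p = 0.0316). Its difference from DMSO stayed under 2-fold at 0.74 and 0.96, though it came to 1.00 at 10 µM after quantile normalization. A further probe set of TRIB1 had 4.11 to 4.62 in the control line and lay under the floor throughout the Twist line. With the median over probe sets TRIB1 was read by that dim probe set. It was at the floor on every Twist-line array, so a Twist-line trend could not be called under that rule. The differences within the Tribbles family thus spanned 7.92 log2 units at 10 µM in the Twist line, from TRIB2 to TRIB3, and 0.24 in the control line.

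SESN2, a leucine-binding protein that restrains mTORC1 through the GATOR complexes, had signals of 6.23, 6.25 and 6.63 in the control line against 5.47, 10.21 and 10.67 in the Twist line. As with TRIB3, the Twist DMSO array had the lowest signal of the 6. The difference from DMSO was 4.74 and 5.20, ranked 3 and 9 from the highest of all measured genes. SESN2 rose by 2.60 ± 0.52 log2 units per level in the Twist line (SE, limma adjusted p = 0.0284), and the trend in the control line was 0.20 ± 0.52 (limma adjusted p = 0.926). The step from 5 µM to 10 µM was 0.46, so that nearly all of the difference was already there at the first compound level. The other probe set gave 3.25 and 3.85, an SD of 0.95 between the 2 at 10 µM, and the median over probe sets gave 3.99 and 4.53.

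SESN1 and SESN3 did not pass the test in either line. SESN1, a p53 target, had 7.73, 7.65 and 7.94 in the control line against Twist-line signals of 7.81, 8.03 and 8.09, and its range over all 6 arrays was 0.44. SESN3, a FOXO target, had 7.45, 7.82 and 7.85 in the control line against 8.05, 7.46 and 7.24 in the Twist line. Its order over the arrays was opposite in the lines, with trends of 0.20 ± 0.12 in the control line (SE, limma adjusted p = 0.621) and -0.40 ± 0.12 in the Twist line (limma adjusted p = 0.0574). The latter passed with the floor at the 65th percentile (SESN3, limma adjusted p = 0.0406) and with levels coded 0, 1 and 1 (SESN3, limma adjusted p = 0.0486). At 10 µM the sestrins spanned 6.01 log2 units in the Twist line and 0.19 in the control line.

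CHAC1 and CHAC2 cleave glutathione into 5-oxoproline and cysteinylglycine, and CHAC1 is the stress-induced form with the faster turnover. CHAC1 lay close to the floor without a response, at 4.15, 4.01 and 3.89 in the control line and at 3.81 on the Twist DMSO array. It reached 7.45 and 8.62 on the Twist 5 µM and 10 µM arrays, differences of 3.64 and 4.81, which ranked 11 and 10 from the highest of all measured genes. Its Twist DMSO signal lay close to the floor of 3.71, so the size depends on the floor. With the floor at the 65th percentile, a log2 signal of 6.02, that array was at the floor and the differences were at least 1.42 and 2.60. CHAC1 rose by 2.41 ± 0.30 log2 units per level in the Twist line (SE, limma adjusted p = 0.013), and its trend in the control line was -0.13 ± 0.30 (limma adjusted p = 0.917). Between 5 µM and 10 µM it was higher by 1.17, 1 of 70 genes (0.593% of 11813) past 2-fold in that step.

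CHAC2 was bright on all arrays, with 11.32, 11.72 and 11.66 in the control line against 11.67, 10.42 and 10.14 in the Twist line. Both Twist compound arrays lay below the other 4. CHAC2 fell in the Twist line by 0.76 log2 units per level (SE 0.15, limma adjusted p = 0.0286), while the control-line differences from DMSO were 0.40 and 0.35 (trend 0.17 ± 0.15, SE, limma adjusted p = 0.695). The paralogues of this pair were therefore 6.34 log2 units apart in their differences at 10 µM in the Twist line and 0.60 apart in the control line. Each is read by 1 probe set.

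DDIT4, which restrains mTORC1 through the TSC complex and answers to stress, hypoxia and glucocorticoids, was close to the top of the scale throughout. Its signals were 13.06, 12.78 and 13.07 in the control line against 12.44, 13.29 and 13.43 in the Twist line, with the Twist DMSO array the lowest of the 6. The differences of 0.85 and 0.99 stayed under 2-fold, and the latter was 1.02 on the deposited values with no scaling. DDIT4 rose by 0.50 ± 0.13 log2 units per level (SE, limma adjusted p = 0.0463), a call that was lost with quantile normalization (limma adjusted p = 0.0501) and with the median over probe sets (limma adjusted p = 0.0625). DDIT4 has 1 probe set, so under the median rule its own signals and trend stayed the same and only the other genes fitted changed. In the control line the trend was 0.01 ± 0.13 (SE, limma adjusted p = 1.0).

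**Figure D4:**
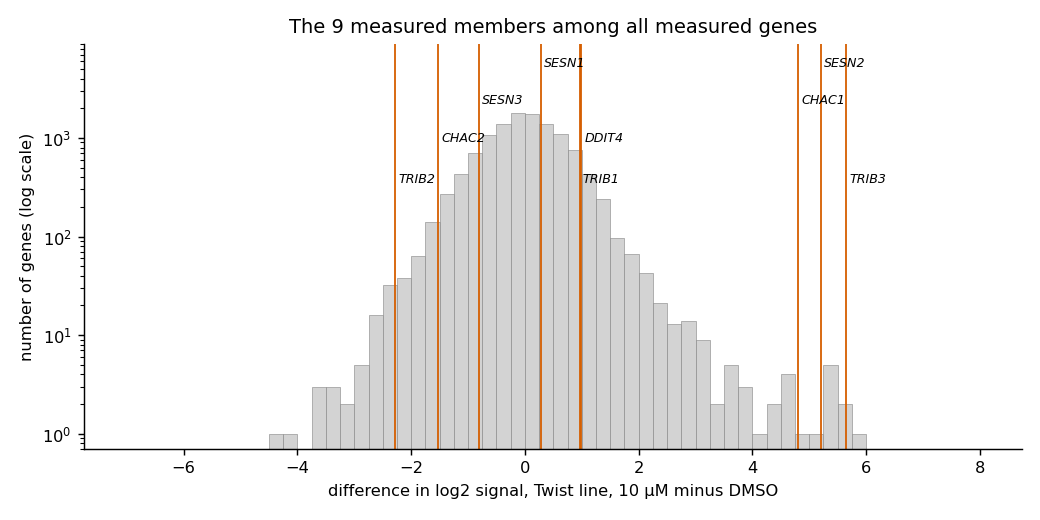
Number of genes (y axis, log scale) by difference in log2 signal between the 10 µM and DMSO arrays of the Twist line (x axis), with lines for the 9 measured members. TRIB3, SESN2 and CHAC1 lie at 4.81 to 5.64, among the 10 highest of 11931 genes, and TRIB2 at -2.28 is the 59th lowest.

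**Figure D5:**
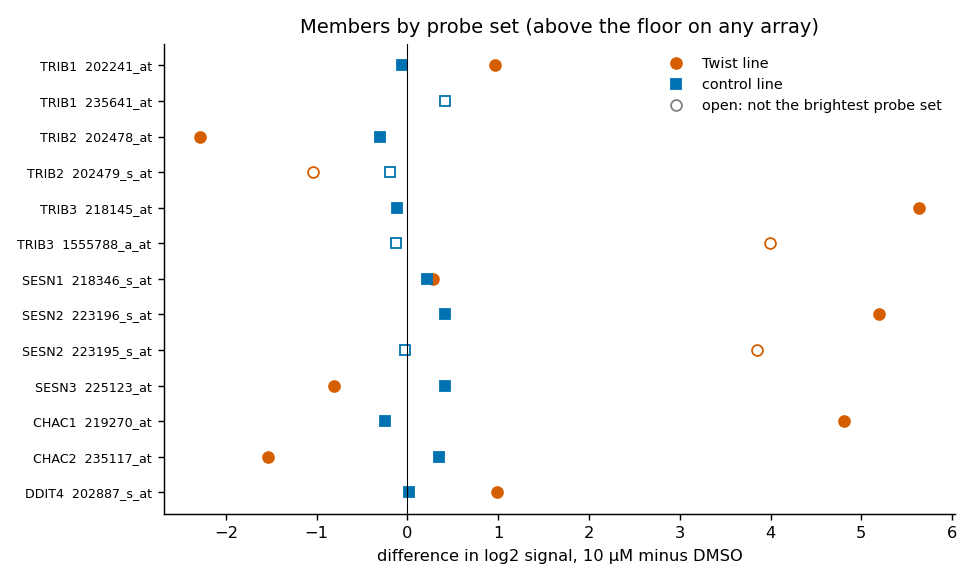
Difference in log2 signal between the 10 µM and DMSO arrays (x axis) for each probe set above the floor on any array (y axis), Twist line as orange circles and control line as blue squares, open for probe sets other than the brightest. A point is left out where both arrays lie at the floor. In the Twist line both probe sets lie at -2.28 and -1.04 for TRIB2, at 5.64 and at least 3.99 for TRIB3, and at 5.20 and 3.85 for SESN2.

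Without the compound the lines differed in 3 of the 9 genes past 2-fold. Under DMSO TRIB2 was higher in the Twist line by 2.73, where 11.9% of 12510 genes were higher, and TRIB1 and TRIB3 were lower by 3.58-fold and 3.13-fold, where 13.5% were lower. Neither of these counts has a test. With the median over probe sets TRIB1 and TRIB3 were under 2-fold, at -0.51 and -0.99. Both values are bounds, because a dimmer probe set of each lay under the floor on the Twist DMSO array. The other 6 lay between -0.76 (SESN2) and 0.60 (SESN3). At 5 µM 4 of the 9 were higher in the Twist line (12.1% of all genes) and 2 lower (12.6%), and at 10 µM 3 were higher (14.8%) and 1 lower (14.1%). TRIB3 was 3.46 and 4.11 above the control line at these levels, SESN2 3.95 and 4.04, and CHAC1 3.43 and 4.73.

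The line difference over the 3 treatments was tested in a second limma fit with treatment as a factor. TRIB2 was higher in the Twist line (1.80 ± 0.39 log2 units, SE, limma adjusted p = 0.0233, higher on 3 of 3 pairs of arrays) and TRIB1 lower (-1.26 ± 0.25, limma adjusted p = 0.017, lower on 3 of 3). Among all genes 13.7% were higher and 14.9% lower. TRIB3, SESN2 and CHAC1, whose line difference changed sign between DMSO and the compound, had 1.97 ± 1.13, 2.41 ± 0.99 and 2.61 ± 0.94 and were not called (limma adjusted p of 0.273, 0.14 and 0.101). Without the DMSO pair of arrays 5 of the 9 were higher and 2 lower, beside 28.5% and 29.5% of all genes. Leaving out only 1 array of a pair is no further check. Its partner is then taken up by its own treatment term, so the coefficients are those without the pair. Without the 5 µM pair 2 were higher and 0 lower, beside 9.32% and 10.7% of all genes, and TRIB1 had a limma adjusted p of 0.0526. CHAC1 was among those called higher, although its line difference was -0.34 under DMSO and 4.73 at 10 µM.

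The 3' to middle contrast moved with these groups, falling from 0.955 on the Twist DMSO array to 0.355 and 0.445 on the Twist compound arrays. In the control line it went the other way, from 0.28 to 0.45 and 0.835, and the widest range of a member there was 0.45. Contrast and treatment changed together in both lines and cannot be told apart. Arrays of close contrast can be set side by side across the lines. The Twist 10 µM array (0.445) against the control-line 5 µM array (0.45) gave 4.14 for TRIB3, 4.42 for SESN2, 4.61 for CHAC1, 0.65 for DDIT4 and -1.58 for CHAC2. TRIB2 had 0.9 and TRIB1 -0.89 in that pair. The Twist 5 µM array (0.355) against the control-line DMSO array (0.28) gave 3.31 for TRIB3, 3.98 for SESN2 and 3.3 for CHAC1. In the same pair DDIT4 had 0.23, CHAC2 -0.9, TRIB2 1.46 and TRIB1 -1.1. The Twist DMSO array (0.955) against the control-line 10 µM array (0.835) gave -1.53 for TRIB3, -1.16 for SESN2, -0.08 for CHAC1, 3.04 for TRIB2 and 0.01 for CHAC2. DDIT4 had -0.63 and TRIB1 -1.78 there. These pairs differ in line and treatment at the same time, and the part of RNA quality in the member values was not tested.

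The genes with profiles most like each member were found by the root mean square (RMS) difference between mean-centred log2 profiles over the 6 arrays, among the genes tested. The points of such a profile share the 6 arrays and their scaling, so these are descriptions without a test. Closest to TRIB3 were OASL (0.29), the lncRNA gene PARAIL (0.61) and SDF2L1 (0.70). Closest to SESN2 were PARAIL (0.46), OASL (0.48) and PPP1R15A (0.59), and closest to CHAC1 were PARAIL (0.31), PPP1R15A (0.34) and C11orf96 (0.42). Among the members TRIB3 and SESN2 were 0.30 apart and SESN2 and CHAC1 0.39. PPP1R15A, the eIF2-alpha phosphatase subunit, had 5.66, 5.74 and 5.54 in the control line against 6.19, 9.29 and 9.89 in the Twist line.

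The genes that fell had other neighbours. TRIB2 was closest to CCDC85A (0.21), FAXDC2 (0.24) and AXIN2 (0.24), a negative regulator of Wnt signalling that was at the floor on all control-line arrays and had 7.12, 5.88 and 4.44 in the Twist line. CHAC2 was closest to EVI5 (0.02), GNL3L (0.07) and PGM2 (0.08). TRIB1 was closest to CHPF (0.07), UCHL3 (0.09) and SERPINB8 (0.09). SESN1, SESN3 and DDIT4 spanned less than 1 log2 unit over the arrays and were not matched.

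The pathways around these families were read from 8 lists that hold no member, chosen with earlier results of the data known. For scale, 4.26% of all measured genes were 2-fold higher and 5.01% lower at 5 µM in the Twist line, and 8.04% and 8.46% at 10 µM. In the limma trend fit of that line 10.8% of all genes rose and 11.4% fell. Of 27 measured genes of ATF4, CHOP and their targets, 15 were 2-fold higher and 1 lower at 5 µM in the Twist line, and 16 and 0 at 10 µM, with medians of 1.08 and 1.27. In the limma fit 17 of 27 rose over the levels and 0 fell. The widest differences at 10 µM were those of DDIT3 (5.80), the stress factor ATF3 (5.54) and PCK2 (3.77), the mitochondrial form of PEP carboxykinase. In the control line 0 of 25 were 2-fold from DMSO at either level, with medians of -0.05 and -0.10.

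The glutathione list, which covers the substrate of the CHAC enzymes, had 3 of 14 measured genes 2-fold higher at both levels and 0 lower (medians 0.57 and 0.55), and 4 rose and 1 fell in the limma fit. The widest were CBS (1.93) and CTH (1.68), the enzymes of transsulfuration, and SLC7A11 (1.88), the cystine transporter. Downstream of sestrins and REDD proteins, 1 of 32 measured mTORC1 and GATOR genes was 2-fold higher at 10 µM and 0 were lower. That gene was SEC13, at 1.07, which serves both GATOR2 and COPII coats. TSC2 had 0.92 and TXNIP 0.90, and the median was 0.01. Over the levels 2 of 31 rose and 0 fell in the limma fit.

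Of 11 measured Tribbles partners and substrates 0 were 2-fold higher and 1 lower at 10 µM, with a median of -0.06. The latter was CUL4A, at -1.50, a cullin of the ubiquitin ligases that COP1 works with. CEBPB (0.95) and the MAP kinase kinase gene MAP2K1 (-0.86) were the next widest. In the limma fit 1 of 12 rose and 2 fell. Among the lists for other inputs of these families, p53 targets had 2 of 16 higher and 1 lower at 10 µM (median 0.40), with XPC at 1.55, RRM2B at -1.32 and TP53I3 at 1.15. FOXO genes and targets had 0 of 14 higher and 1 lower (median 0.28), with CDKN1B at -1.18, CITED2 at -0.99 and TXNIP at 0.90. Hypoxia targets had 2 of 12 higher and 0 lower (median -0.13), with NDRG1 at 1.11, ANGPTL4 at 1.03 and P4HA1 at -0.77. Glucocorticoid receptor targets had 3 of 11 higher and 1 lower (median 0.53), with NFKBIA at 2.18, TSC22D3 at 1.82 and KLF9 at -1.25. Over the levels 3 p53 targets rose and 1 fell of 16 in the limma fit, 2 and 2 of 14 for FOXO, 2 and 0 of 13 for hypoxia, and 4 and 1 of 11 for the glucocorticoid list. Lists this short, beside 10.8% of all genes rising and 11.4% falling in that fit, were not tested as sets.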

How the data were processed

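The deposited table holds 1 value per probe set and array, judged to be log2 signals from their range of 1.12 to 14.8, because the labels name no unit. Software is given as GCOS 1.2 (per the submitters' processing notes); the authors' background correction, summarisation and normalisation are not given in the sources used here. Probe sets numbered 54675. Without its 62 Affymetrix controls, 41091 had 1 symbol, 1801 several and 11721 none; symbols were updated through gene identifiers to RefSeq (GRCh38.p14). Each array was shifted to a median difference of 0 from the mean of all arrays, taken over probe sets above the median signal, and signals under the median of all values (3.71) were set to it. A gene was read by its brightest probe set. The 12478 genes that exceeded the floor on 2 or more arrays were fitted in R 4.3.3 with limma 3.58.1 (eBayes, trend on signal), and p-values were adjusted over all of them by the Benjamini-Hochberg method at 0.05. The fits were tested on simulated data. Tables were handled in Python with pandas. Named were all 10 members, the 3 genes closest in profile to each member that spanned 1 log2 unit, and the 3 widest genes of each list. Members and lists were chosen with earlier results of these data known. Nothing in the labels says that arrays came from separate experiments, so the spread may be technical. Alternatives were the deposited scaling, quantile normalization, floors at the 35th and 65th percentile, other probe set rules, no filter, levels coded 0, 1 and 1, and leaving out arrays or pairs.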

Additional observations from a re-analysis of the deposited data

How the results depend on the processing

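Of 408 member differences between single arrays recomputed under other scalings, floors and probe set rules, 403 stayed on their side of 2-fold, and 0 changed sign while past 2-fold. Many of these could not move. The floor at the 35th percentile, the widest probe set and leaving out suffixed probe sets gave the same differences as the main setting, for the members measured in both. The median over probe sets cannot change SESN1, CHAC1, CHAC2 or DDIT4, which have 1 probe set each. Sizes moved more: for 14 of the 408 the fold, taken out of log2, changed by a factor of over 1.5. Of these, 4 were CHAC1 differences with the floor at the 65th percentile (in log2 units, 3.64 to 1.42 and 4.81 to 2.60 against DMSO). The other 10 came with the median over probe sets (in log2 units, TRIB1 between lines under DMSO from -1.84 to -0.51, TRIB2 at 10 µM against DMSO from -2.28 to -1.66). With the median over probe sets 0 members were lower in the Twist line under DMSO in place of 2, and 1 in place of 2 at 5 µM. The TRIB1 line differences under that rule are bounds, from a probe set at the floor in the Twist line. Its Twist-line trend could not be called there. Of 542 member coefficients of the limma fits, 446 stayed on their side of the threshold, 51 lost the call and 45 gained one, with no sign change of a called value. For the Twist-line trend (5 higher, 2 lower), 3 were higher with the median over probe sets (10.2% of all genes). With suffixed probe sets left out 3 were higher (10.7% of all genes), where SESN2 and DDIT4 were not measured. With no filter 0 and 0 were called (0.0405% of all genes in each direction). For the difference of trends (0 and 0), 1 and 1 were called with the floor at the 35th percentile (1.66% and 1.49% of all genes) and at the 65th (0.207% and 0.216%). The widest probe set gave 2 and 2 (8.66% and 6.47%), and levels coded 0, 1 and 1 gave 5 and 2 (12.5% and 13.9%). For the line difference (1 and 1), 2 were lower with the floor at the 35th percentile (14.3% of all genes), and 0 and 0 were called with no filter (4.21% and 6.28%). The gene added at the 35th percentile was DDIT4L, which is not among the 9. Its signals of 3.32 to 3.59 in the control line exceeded that floor of 2.89, and those of 2.27 to 2.65 in the Twist line lay under it. It had 5 and 2 without the DMSO pair (28.5% and 29.5% of all genes), 2 and 0 without the 5 µM pair (9.32% and 10.7%) and 3 higher without the 10 µM pair (12.5%). The genes newly higher without a compound pair were CHAC1 in both cases and SESN2 without the 10 µM pair. Their line differences were -0.34 and -0.76 under DMSO against 3.43 and 3.95 at 5 µM, and CHAC1 had 4.73 at 10 µM. The pairs left thus differed in sign, and these calls do not stand for a line difference held over treatments. Leaving out each array in turn gave 0 to 4 higher and 0 to 1 lower for the Twist-line trend, 0 to 4 higher and 0 to 0 lower for the difference of trends, and 2 to 5 higher and 0 to 2 lower for the line difference. The shares of all genes moved as well, up to 11.8% and 14.1% for the Twist-line trend and 8.19% and 9.46% for the difference of trends. For the line difference they were 9.18% to 28.5% higher and 10.5% to 29.5% lower. Such fits have 1 residual degree of freedom, and a group left without its array is bridged by the model. For the line difference, leaving out 1 array of a pair gives the same coefficients as leaving out the pair, so it is no further check. The cause of these shifts was not tested beyond the change in genes or arrays that each alternative makes. No paired analysis was possible because each group holds 1 array and the labels number no replicates; the line difference has treatment as its block. Signal over background limits DDIT4L and 6 probe sets of SESN3, which lay at the floor, and CHAC1 without the compound.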
